A study of Mus musculus with 4 samples.

Results

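Integrins, laminins and their basement membrane partners were followed in basal epidermal cells of mouse embryos that had lost Ezh2. The 40 genes were set by a fixed list of 16 integrin subunits, 9 laminin chains, 3 further hemidesmosome genes and 12 other adhesion genes of the basement membrane. Of these, 39 had at least 1 probe set annotated to a single symbol, giving 94 probe sets of the 45037 non-control probe sets on the array, and 76 of the 94 passed a filter on mean signal. All 39 genes kept at least 1 probe set, among 12703 genes measured in all, while no value was obtained for Fermt1, which encodes the integrin activator kindlin-1.

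Basal keratinocytes stand on a basement membrane that they help to build. Integrins are receptors of 1 alpha and 1 beta subunit. The α6β4 integrin anchors the cell to laminin through the hemidesmosome, where the plakins plectin and BP230 link it to keratin filaments, while β1 integrins bind laminin, collagen or fibronectin and connect to actin. Laminins are trimers of an alpha, a beta and a gamma chain; nidogens, perlecan and agrin tie the laminin network to collagen IV and to cell surface receptors, and the Fraser complex holds epidermis and dermis together in the embryo.

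There were 2 Ezh2cKO arrays, from embryos with a conditional knockout of Ezh2, the enzyme of Polycomb repressive complex 2 that methylates histone H3, and 2 WT arrays. Both genotypes were sorted basal skin cells of embryonic day 16, from mice of mixed C57 and CD1 strain, and in each the samples were numbered 1 and 2. The labels do not name the Cre driver or the deleted exons, and they do not say that samples came from separate animals. A p-value here thus reflects no more than the scatter among these 4 arrays, part of which may be technical. The number of arrays limits the precision. Signals are MAS5 intensities in arbitrary units, which compare a probe set between arrays but not different genes with each other.

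Several features of the whole arrays touch the results. Ezh2 itself had signals of 661 and 1308 in the Ezh2cKO arrays, against 3336 and 3603 in the WT arrays. Its log2 difference was -1.88 (SE 0.34), and even this gene had an adjusted p of 0.999979 in limma; the labels do not say whether its probe set lies in the deleted part. The 5 basal keratinocyte markers (Krt5, Krt14, Krt15, Trp63 and Col17a1) were bright on every array, with signals between 6863 and 18518. The suprabasal keratin Krt10 had signals between 16550 and 20275 in these sorted cells. Of the 5 suprabasal and cornified markers, 2 were higher on both Ezh2cKO arrays than on both WT arrays, and 0 were lower. These were Lor, with 5629 and 3423 in the Ezh2cKO arrays against 1753 and 2498 in the WT arrays, and Flg. Flg had 169 and 184 in the Ezh2cKO arrays, against 23.8 and 29.5 in the WT arrays. Some dermal fibroblast markers were bright as well, with Col1a1, Col1a2, Col3a1 and Dcn at 5178 or more on every array. Others were dimmer, with Pdgfra, Twist2 and Dpt between 156 and 711. The 8 dermal markers summed to between 46251 and 58119, a sum that mostly reflects the brightest genes. Col1a1 had 5178 and 9581 in the Ezh2cKO arrays, against 7044 and 9130 in the WT arrays. None of the 8 dermal, 10 endothelial and 7 pericyte or smooth muscle markers lay below the filter's mean signal of 73.2. The 10 endothelial markers summed to 6497 in Ezh2cKO replicate 1 and 13786 in Ezh2cKO replicate 2, against 11666 and 12926 in the WT arrays, so that Ezh2cKO replicate 1 stood apart. It also stood apart in Xist, a marker of embryo sex, at 86.9 against 8669 to 11333 on the other 3 arrays. The embryo sex markers Eif2s3y, Kdm5d and Uty were highest on that array. They had 861, 494 and 354 there, against 222 to 535, 118 to 287 and 134 to 286 on the others. The part of embryo sex in the differences within number 1 was not tested. The 4 measured adipocyte markers summed to 3032 and 7959 in the Ezh2cKO arrays, against 11651 and 7490 in the WT arrays. In such bulk samples, fewer cells of a type and less RNA per cell cannot be told apart.

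Loss of Ezh2 went with no adhesion gene difference that passed the test. By limma, 0 of the 76 kept member probe sets had a Benjamini-Hochberg adjusted p under 0.05, the adjusted p being 0.999979 for each, and 0 of all 27022 probe sets passed (0%). At an unadjusted p under 0.05, 1 member probe set was lower in Ezh2cKO and 0 were higher, where 16 (0.0592%) and 94 (0.348%) of all probe sets were. The brightest kept probe set of each gene is used below, with differences on the scale of log2(signal + 16), Ezh2cKO minus WT. The median difference over the 39 genes was 0.02, from -0.54 for Itga6 to 0.50 for Frem1, and the median over all 12703 genes was -0.0035. The 95% confidence interval lay within a doubling or halving of signal, that is within log2 -1 to 1, for 25 of the 39 genes. For the other 14 it reached beyond that range. Over all 12703 genes it lay within that range for 8684.

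A gene is called separated here when both Ezh2cKO arrays lie on the same side of both WT arrays. Of the 39 genes, 5 were separated upwards (12.8%): Itga3, Itgb8, Lama1, Bcam and Frem1. The same held for 8.52% of all genes. Another 3 were separated downwards (7.69%), namely Itga6, Lamb2 and Dst, where 8.39% of all genes were. Within both replicate numbers, 8 genes were higher in Ezh2cKO (25.2% of all genes were) and 10 were lower (25.6% of all genes). The other 21 of the 39 pointed opposite ways in numbers 1 and 2, as did 6252 of all 12703 genes. Both shares of separated genes are near those of all genes. Only Itga6 was separated under each of 3 scalings, the authors' own, quantile normalization and a common median. The share of all genes separated under each of the 3 is not given here, so this count has no background beside it.

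**Figure D1:**
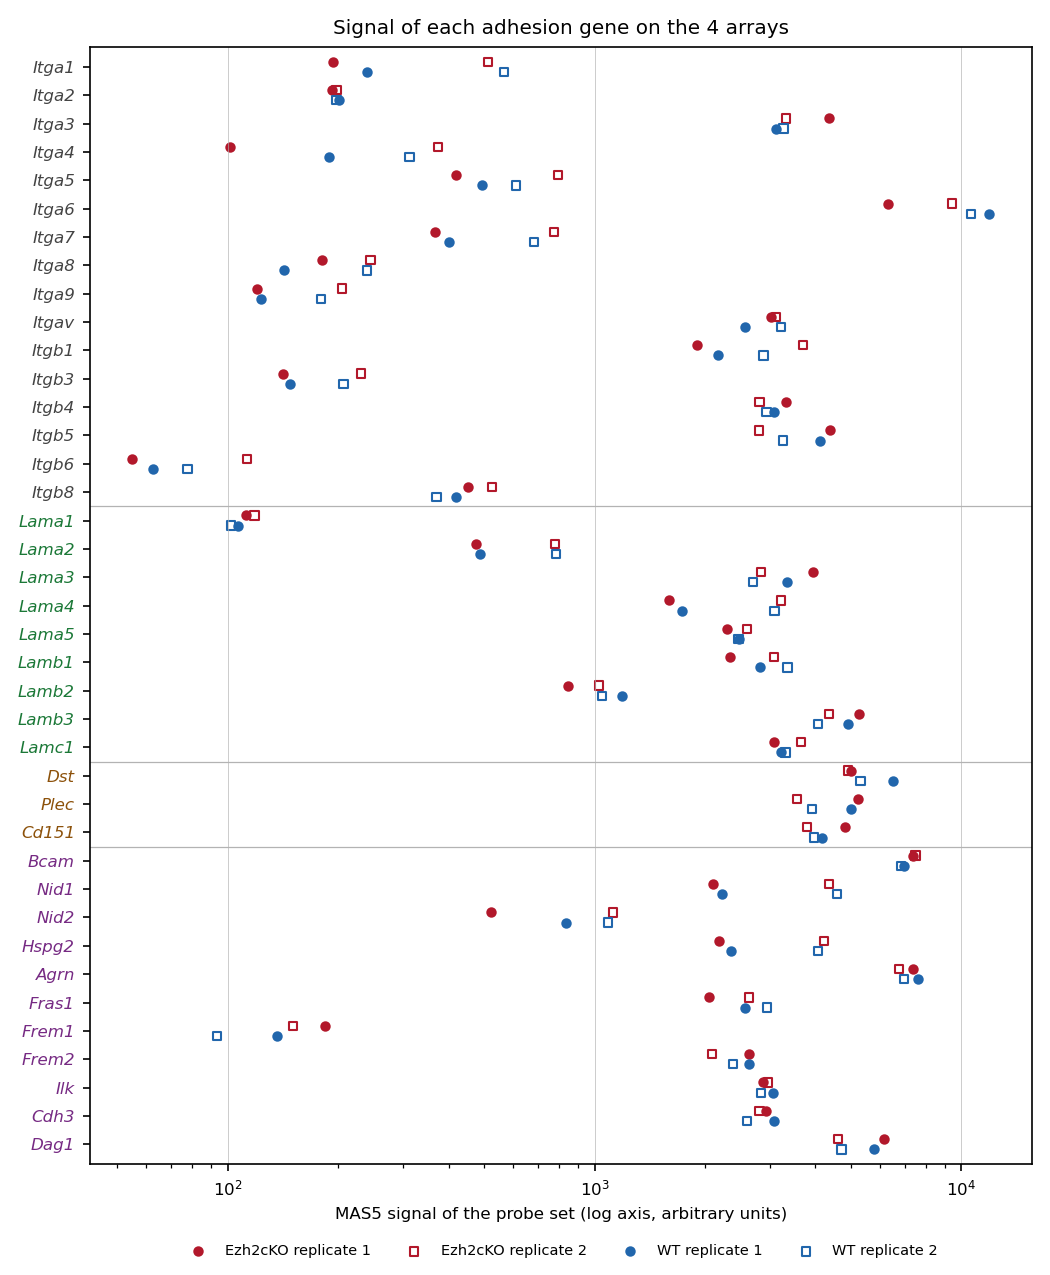
MAS5 signal of the brightest kept probe set of each of the 39 measured genes (log axis, arbitrary units), with filled circles for replicate 1 and open squares for replicate 2, Ezh2cKO in red above WT in blue within each row. Label colours mark integrins, laminins, hemidesmosome and other genes from top to bottom; for genes such as Nid1, Hspg2 and Lama4 the replicate numbers lie further apart than the genotypes, while both Ezh2cKO arrays lie below both WT arrays for Itga6.

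Among the integrins, Itga6 showed the largest difference, and its partner Itgb4 showed hardly any. Itga6 encodes the alpha subunit of the hemidesmosome laminin receptor and is also made by endothelial cells. Its signal was 6327 and 9411 in the Ezh2cKO arrays, against 11908 and 10639 in the WT arrays. Both Ezh2cKO arrays were below both WT arrays, replicate 1 by the wider margin. The log2 difference was -0.54 (SE 0.22, 95% confidence interval -1.09 to -0.00026, unadjusted p 0.0499 and adjusted p 0.999979 in limma), -0.91 within number 1 and -0.18 within number 2. Without Ezh2cKO replicate 1 it was -0.26, and without Ezh2cKO replicate 2 it was -0.83 with an adjusted p of 0.350.

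The second probe set of Itga6 had 2995 and 5253 in the Ezh2cKO arrays, against 3919 and 5246 in the WT arrays. This probe set was lower than WT only within number 1 (-0.39, against 0.0020 within number 2). In both genotypes its number 1 array was below its number 2 array. Ezh2cKO replicate 1 was also the array with the lowest endothelial marker sum. The part of endothelial RNA in the Itga6 signal was not tested. Itgb4, the beta subunit found only with α6, had 3329 and 2816 in the Ezh2cKO arrays, against 3085 and 2943 in the WT arrays. Its WT values lay between the Ezh2cKO values, with a log2 difference of 0.02 (SE 0.17, 95% confidence interval -0.39 to 0.44).

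Itga3 encodes the alpha subunit that pairs with β1 as a laminin receptor outside hemidesmosomes. Its signal was 4354 and 3321 in the Ezh2cKO arrays, against 3129 and 3272 in the WT arrays. The second Ezh2cKO array was barely above WT, and the log2 difference was 0.25 (SE 0.19), 0.47 within number 1 and 0.02 within number 2. All 3 probe sets of Itga3 were higher in Ezh2cKO, by log2 0.10 to 0.25, and 2 of them were separated. Without Ezh2cKO replicate 1 the difference was 0.05, and with a common median it was -0.09 within number 2, so that the groups overlapped.

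Itgb1, the beta subunit shared by the collagen, fibronectin and several laminin receptors, had 1897 and 3697 in the Ezh2cKO arrays, against 2177 and 2889 in the WT arrays. The Ezh2cKO values spanned the WT values, with log2 differences of -0.20 within number 1 and 0.35 within number 2. Its other bright probe set gave -0.10 and 0.34. Itgb8, which activates latent TGF-β with αv, had 453 and 526 in the Ezh2cKO arrays, against 420 and 371 in the WT arrays. This placed both Ezh2cKO arrays above WT, by log2 0.30 (SE 0.23, 95% confidence interval -0.29 to 0.88). With a common median the groups of Itgb8 overlapped.

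Itga4, an alpha subunit for fibronectin and VCAM that is known from leukocytes and mesenchyme, had 101 and 374 in the Ezh2cKO arrays, against 189 and 313 in the WT arrays. The WT values lay between the Ezh2cKO values, and the mean difference of -0.28 (SE 0.63) joined -0.81 within number 1 and 0.24 within number 2. The other integrins had differences between -0.21 for Itga1, of a collagen receptor, and 0.17 for Itga8, a nephronectin receptor subunit. Between them lay Itga2 (collagen), Itga5 (fibronectin), Itga7 (muscle laminin), Itga9 (tenascin), Itgav, Itgb3, Itgb5 and Itgb6 (matrix proteins with an RGD motif), all with overlapping groups. Over the 16 integrins the median was 0.06, with -0.06 within number 1 and 0.09 within number 2.

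**Figure D2:**
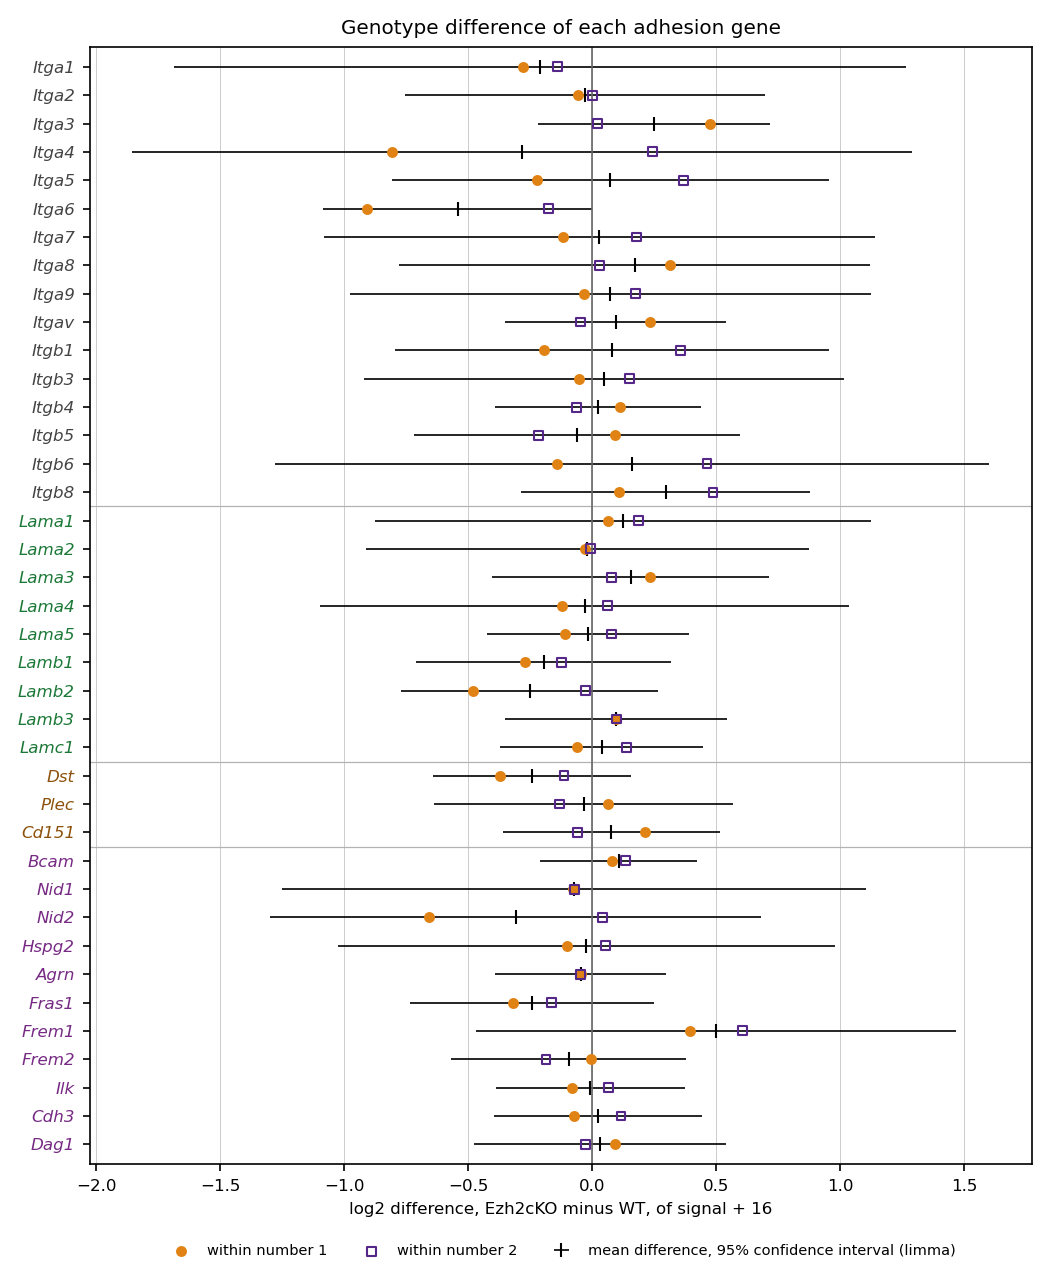
Log2 difference of signal + 16, Ezh2cKO minus WT, for the 39 measured genes, with black ticks for the mean difference, bars for its 95% confidence interval from limma (n = 2 arrays per genotype), orange circles for number 1 and purple squares for number 2 (1 array per genotype each). Every interval except that of Itga6, which ends at -0.00026, includes 0, and the circles and squares of many genes lie on opposite sides of 0.

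The groups overlapped for the epidermal laminin chains Lama3, Lamb3 and Lama5. Lama3, the alpha chain of the laminin that hemidesmosomes bind, had 3930 and 2846 in the Ezh2cKO arrays, against 3344 and 2700 in the WT arrays. Lamb3, the beta chain of the same laminin, had 5244 and 4357 in the Ezh2cKO arrays, against 4913 and 4071 in the WT arrays. Both genes were slightly higher in Ezh2cKO within each number, by log2 0.23 and 0.08 for Lama3 and by 0.09 and 0.10 for Lamb3, but the groups overlapped because both number 1 arrays were higher than both number 2 arrays. Lama5, the alpha chain of the other main epidermal laminin, had 2293 and 2607 in the Ezh2cKO arrays, against 2476 and 2470 in the WT arrays. Its WT values lay between the Ezh2cKO values (log2 -0.02, 95% confidence interval -0.42 to 0.39).

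Lamb2, a beta chain of vascular, nerve and muscle laminins, had 849 and 1028 in the Ezh2cKO arrays, against 1190 and 1048 in the WT arrays. Both lay below WT, by log2 -0.25 (SE 0.21), a difference that came mostly from number 1 (-0.48, against -0.03 within number 2). With a common median the groups of Lamb2 overlapped. Lama1, the alpha chain of the first embryonic laminin, had 112 and 118 in the Ezh2cKO arrays, against 107 and 102 in the WT arrays. This separation was small and close to the filter's level, at log2 0.12 (SE 0.40), and it was lost with quantile normalization or a common median. Lama2, Lama4, Lamb1 and Lamc1 had overlapping groups and mean differences between -0.20 and 0.04, and over the 9 laminins the median was -0.02.

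The plakins and tetraspanin of the hemidesmosome differed little. Dst, which encodes BP230 in epidermis and longer plakins in nerve and muscle, had 5010 and 4903 in the Ezh2cKO arrays, against 6494 and 5309 in the WT arrays. The Ezh2cKO arrays lay below both WT arrays, by log2 -0.24 (SE 0.16, 95% confidence interval -0.64 to 0.16). The difference rested on the first WT array, being -0.10 without it, and the groups overlapped with a common median. The other 3 probe sets of Dst overlapped between the genotypes, with differences between -0.02 and 0.04, and the files do not pair probe sets with the isoforms of this gene.

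Plec, encoding plectin, had 5225 and 3567 in the Ezh2cKO arrays, against 4996 and 3917 in the WT arrays. Cd151, a tetraspanin that binds laminin receptors, had 4821 and 3796 in the Ezh2cKO arrays, against 4158 and 3958 in the WT arrays. For both genes the Ezh2cKO values spanned the WT values, with mean differences of -0.04 and 0.08. The brightest probe sets of Plec and Cd151 are of design types that can also detect related transcripts. Of the 5 kept probe sets of Cd151, 4 were lower on average in Ezh2cKO and 1 was higher, so the sign of its small difference depends on the probe set. Of 20 members with several kept probe sets, 8 had differences of both signs.

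**Figure D3:**
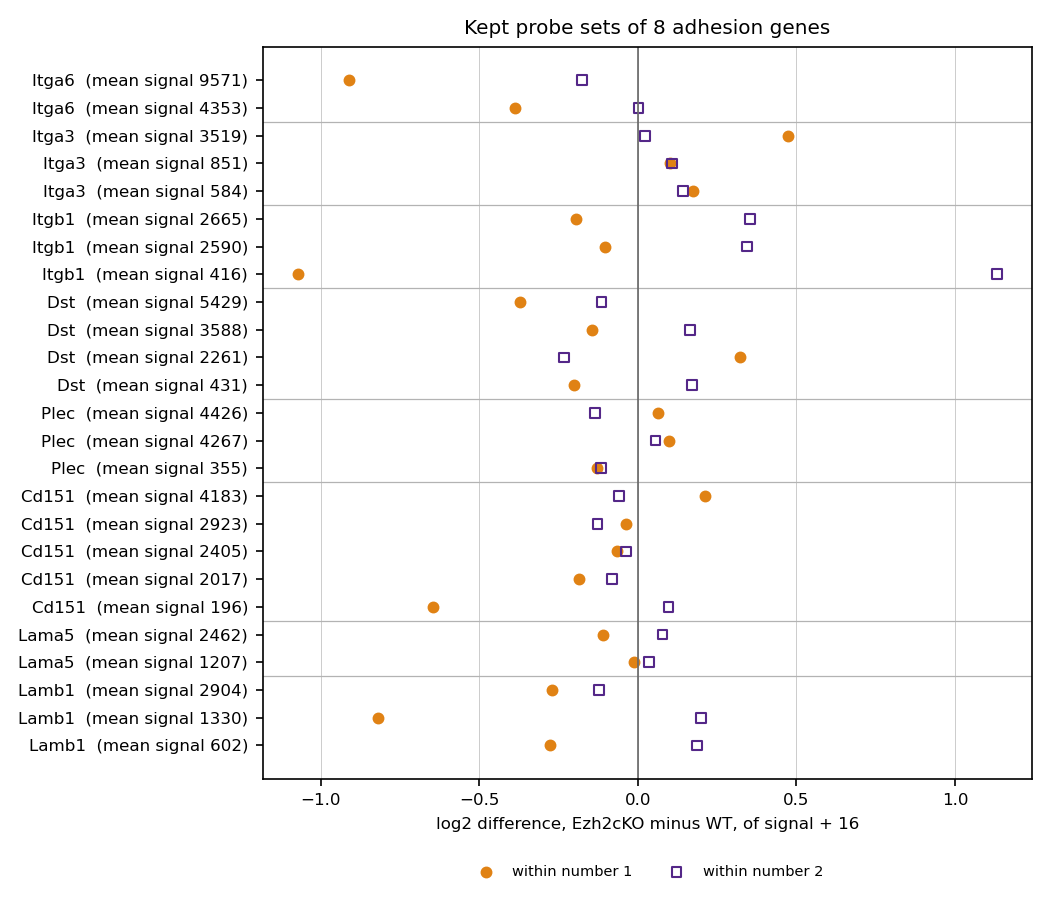
Log2 difference of signal + 16, Ezh2cKO minus WT, within number 1 (orange circles) and within number 2 (purple squares) for every kept probe set of 8 adhesion genes, each row labelled with the probe set's mean signal over the 4 arrays. The probe sets of Itga3 all lie at or above 0, the brightest of Itga6 lies below 0 in both numbers, and of the 4 of Dst only the brightest lies below 0 in both.

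Among the other basement membrane genes, Frem1 and Bcam were separated upwards. Frem1, a matrix protein of the Fraser complex, had 184 and 151 in the Ezh2cKO arrays, against 137 and 93.6 in the WT arrays. Both Ezh2cKO arrays were higher, by log2 0.50 (SE 0.39, 95% confidence interval -0.47 to 1.47), but the gene was dim, and its groups overlapped with quantile normalization or a common median. Without WT replicate 2 the difference was 0.26. Bcam, a laminin α5 receptor of the immunoglobulin family, had 7369 and 7503 in the Ezh2cKO arrays, against 6978 and 6840 in the WT arrays. Its separation was narrow and was lost with a common median, at log2 0.11 (SE 0.13), 1.08-fold.

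Fras1 and Frem2 belong to the same complex, and no difference between the 3 genes was tested. Fras1 had a difference of -0.24 (SE 0.20), negative within both numbers, and Frem2 one of -0.10, with overlapping groups for both. Nid2, a nidogen, had 522 and 1121 in the Ezh2cKO arrays, against 834 and 1090 in the WT arrays. The low value of Ezh2cKO replicate 1 set its mean difference of -0.31 (SE 0.39), with -0.66 within number 1 and 0.04 within number 2. That array also had the lowest endothelial marker sum, whose part in the Nid2 value was not tested. The remaining genes were Nid1 (the other nidogen), Hspg2 (perlecan), Agrn (agrin), Ilk (an adaptor of β integrins), Cdh3 (P-cadherin) and Dag1 (dystroglycan), with overlapping groups and differences between -0.07 and 0.03. Of the 4 kept probe sets of Dag1, 1 that was not its brightest was separated downwards (-0.17). The second probe set of Hspg2 gave -0.30 (SE 0.31) with overlapping groups, -0.54 within number 1 and -0.06 within number 2. That of Cdh3 gave 0.17, also with overlapping groups.

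Start regions from RefSeq are shown for every separated gene that has an entry, because Polycomb repressive complex 2 is known to act at starts rich in the dinucleotide CpG. These are Frem1, Itgb8, Itga3 and Bcam, separated upwards, and Lamb2 and Dst, separated downwards. No entry was given for Lama1, also separated upwards, or for Itga6, also separated downwards. Each run is the 250 bases before an annotated transcript start in GRCm38.p6, written from 5′ to 3′ on the gene's strand, with CpG in capitals. All listed starts of these genes are given.
Frem1, chr4:83021103-83021352, minus strand: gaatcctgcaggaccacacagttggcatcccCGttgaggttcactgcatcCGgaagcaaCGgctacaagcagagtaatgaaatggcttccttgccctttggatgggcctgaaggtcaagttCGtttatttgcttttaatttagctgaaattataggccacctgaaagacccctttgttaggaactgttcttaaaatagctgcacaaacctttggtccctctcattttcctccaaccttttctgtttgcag
Frem1, chr4:83052167-83052416, minus strand: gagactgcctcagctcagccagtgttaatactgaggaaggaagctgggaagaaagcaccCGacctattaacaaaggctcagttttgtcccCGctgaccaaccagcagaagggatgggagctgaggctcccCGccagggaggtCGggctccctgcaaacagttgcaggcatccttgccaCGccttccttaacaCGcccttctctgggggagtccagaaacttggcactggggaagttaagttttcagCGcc
Itgb8, chr12:119238277-119238526, minus strand: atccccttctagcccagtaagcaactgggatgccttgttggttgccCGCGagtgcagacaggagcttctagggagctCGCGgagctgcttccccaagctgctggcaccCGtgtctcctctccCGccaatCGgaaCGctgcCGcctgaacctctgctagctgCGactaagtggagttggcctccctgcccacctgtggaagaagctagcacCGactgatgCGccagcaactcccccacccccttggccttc
Itga3, chr11:95069199-95069448, minus strand: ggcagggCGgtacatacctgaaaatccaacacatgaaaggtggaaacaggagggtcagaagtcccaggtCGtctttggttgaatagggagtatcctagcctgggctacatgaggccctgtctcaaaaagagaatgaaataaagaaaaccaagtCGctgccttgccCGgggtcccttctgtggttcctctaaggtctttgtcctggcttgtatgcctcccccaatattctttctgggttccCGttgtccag
Itga3, chr11:95076715-95076964, minus strand: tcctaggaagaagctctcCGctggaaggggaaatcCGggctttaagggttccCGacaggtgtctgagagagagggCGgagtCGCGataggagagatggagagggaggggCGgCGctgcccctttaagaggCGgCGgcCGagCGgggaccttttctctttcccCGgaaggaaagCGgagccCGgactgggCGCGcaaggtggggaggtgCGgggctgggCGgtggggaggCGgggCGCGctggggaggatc
Bcam, chr7:19770533-19770782, minus strand: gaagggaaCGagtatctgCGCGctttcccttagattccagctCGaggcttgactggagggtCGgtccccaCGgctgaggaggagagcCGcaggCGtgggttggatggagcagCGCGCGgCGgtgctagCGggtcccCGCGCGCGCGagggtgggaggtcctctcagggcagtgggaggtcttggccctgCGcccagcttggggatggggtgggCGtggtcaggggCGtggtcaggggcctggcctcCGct
Lamb2, chr9:108479612-108479861, plus strand: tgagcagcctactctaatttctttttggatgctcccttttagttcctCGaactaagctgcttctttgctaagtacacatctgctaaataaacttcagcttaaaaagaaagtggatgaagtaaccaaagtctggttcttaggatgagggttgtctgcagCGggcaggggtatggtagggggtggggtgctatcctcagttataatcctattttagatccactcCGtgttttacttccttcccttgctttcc
Dst, chr1:34011345-34011594, plus strand: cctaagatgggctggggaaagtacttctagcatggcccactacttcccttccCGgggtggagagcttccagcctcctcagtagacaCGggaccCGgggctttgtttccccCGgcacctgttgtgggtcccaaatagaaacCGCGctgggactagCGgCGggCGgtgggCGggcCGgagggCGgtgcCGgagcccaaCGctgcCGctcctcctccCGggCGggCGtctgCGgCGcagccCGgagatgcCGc
Dst, chr1:34160010-34160259, plus strand: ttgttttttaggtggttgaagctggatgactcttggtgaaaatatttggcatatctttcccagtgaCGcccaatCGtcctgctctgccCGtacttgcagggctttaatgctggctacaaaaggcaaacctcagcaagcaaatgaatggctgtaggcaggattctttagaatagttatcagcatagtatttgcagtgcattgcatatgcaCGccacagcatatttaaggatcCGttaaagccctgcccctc

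Among the genes separated upwards, the windows hold 4 and 7 CpG for the starts of Frem1, 12 for Itgb8, 5 and 22 for Itga3 and 22 for Bcam. Among those separated downwards, they hold 3 for Lamb2 and 22 and 5 for Dst. Windows with few and with many CpG thus occur in both directions. Both windows of Frem1, the window of Itga3 with 5 CpG and both windows of Dst lie within the annotated span of their gene rather than before it. RefSeq entries were given for 28 of the 40 members, with 37 starts, and 23 of the 37 had 10 or more CpG, compared with 37.8% of all 32851 listed starts. The palindromic AP-1 motif TGANTCA, searched on both strands, was in 0 of the 37 windows and in 6.75% of all. Such matches describe the letters in these windows only.

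For most adhesion genes the replicate numbers lay further apart than the genotypes. The mean difference between numbers 2 and 1 was larger in size than that between the genotypes for 30 of the 39 genes (76.9%), as it was for 76.4% of all genes. Of the 39, 18 were higher in number 2 than in number 1 within both genotypes (46.2%, 35.5% of all genes) and 12 were lower within both (30.8%, 42.5% of all genes). Direction between numbers depends on the scaling, since a common median moved the median of all genes between the numbers to -0.79 in Ezh2cKO and -0.59 in WT, where it was -0.05 and -0.03 with the authors' scaling. Under that scaling 6 members were higher and 26 lower, and with quantile normalization 18 and 10.

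Under all 3 scalings Itga1, Itga4, Itga7, Lama4, Nid1 and Hspg2 were higher in number 2 in both genotypes. Itgb5, Lama3, Lamb3, Plec, Agrn, Frem1, Frem2 and Dag1 were lower in both under all 3. These directions are those of the brightest probe sets. On the authors' scaling the next probe set of Plec was higher in number 2 (log2 0.11 in Ezh2cKO, 0.15 in WT) and its dimmest was lower (-0.77 and -0.78). Dimmer probe sets of Dag1 gave 0.29 and 0.13, 0.16 and 0.02, and -0.03 and 0.17. Nid1, a nidogen made largely by dermal cells, had 4358 in Ezh2cKO replicate 2 and 2104 in Ezh2cKO replicate 1, and 4583 in WT replicate 2 and 2220 in WT replicate 1. With 16 added to each signal, number 2 was thus 2.06-fold number 1 in both genotypes, while the genotypes differed by log2 -0.07. Lama4, the alpha chain of vascular laminins, had 3227 and 1592 in Ezh2cKO replicates 2 and 1, and 3092 and 1736 in WT replicates 2 and 1. Hspg2, encoding perlecan, had 4218 and 2191 in Ezh2cKO replicates 2 and 1, and 4068 and 2351 in WT replicates 2 and 1. Both followed the pattern of Nid1, higher in number 2 whatever the genotype.

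Some marker lists of other cell types differed between the numbers in the same direction in both genotypes, and others did not. The 7 pericyte and smooth muscle markers summed to 25024 and 14659 in Ezh2cKO replicates 2 and 1, and to 25596 and 15342 in WT replicates 2 and 1, with all 7 higher in number 2 in both genotypes. The dermal sums were 58119 and 46251 in Ezh2cKO, and 54897 and 48956 in WT, with 6 of 8 markers higher in number 2 in both genotypes and 1, Dcn, lower in both. Of the 10 endothelial markers, 8 were higher in number 2 in both genotypes. The adipocyte sums went opposite ways, being higher in number 2 in Ezh2cKO and lower in number 2 in WT, and the melanocyte sums were 658 and 646 in Ezh2cKO, and 656 and 983 in WT. The basal keratinocyte sums ran the other way, at 63353 and 68510 in Ezh2cKO, and 60147 and 69298 in WT. All 5 basal markers were lower in number 2 in both genotypes. All these marker sums and counts are on the authors' scaling. A common median lowers number 2 against number 1, and marker directions under it are not given here. The part of these cell types in the signals of Nid1, Lama4 and Hspg2 was not tested.

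**Figure D4:**
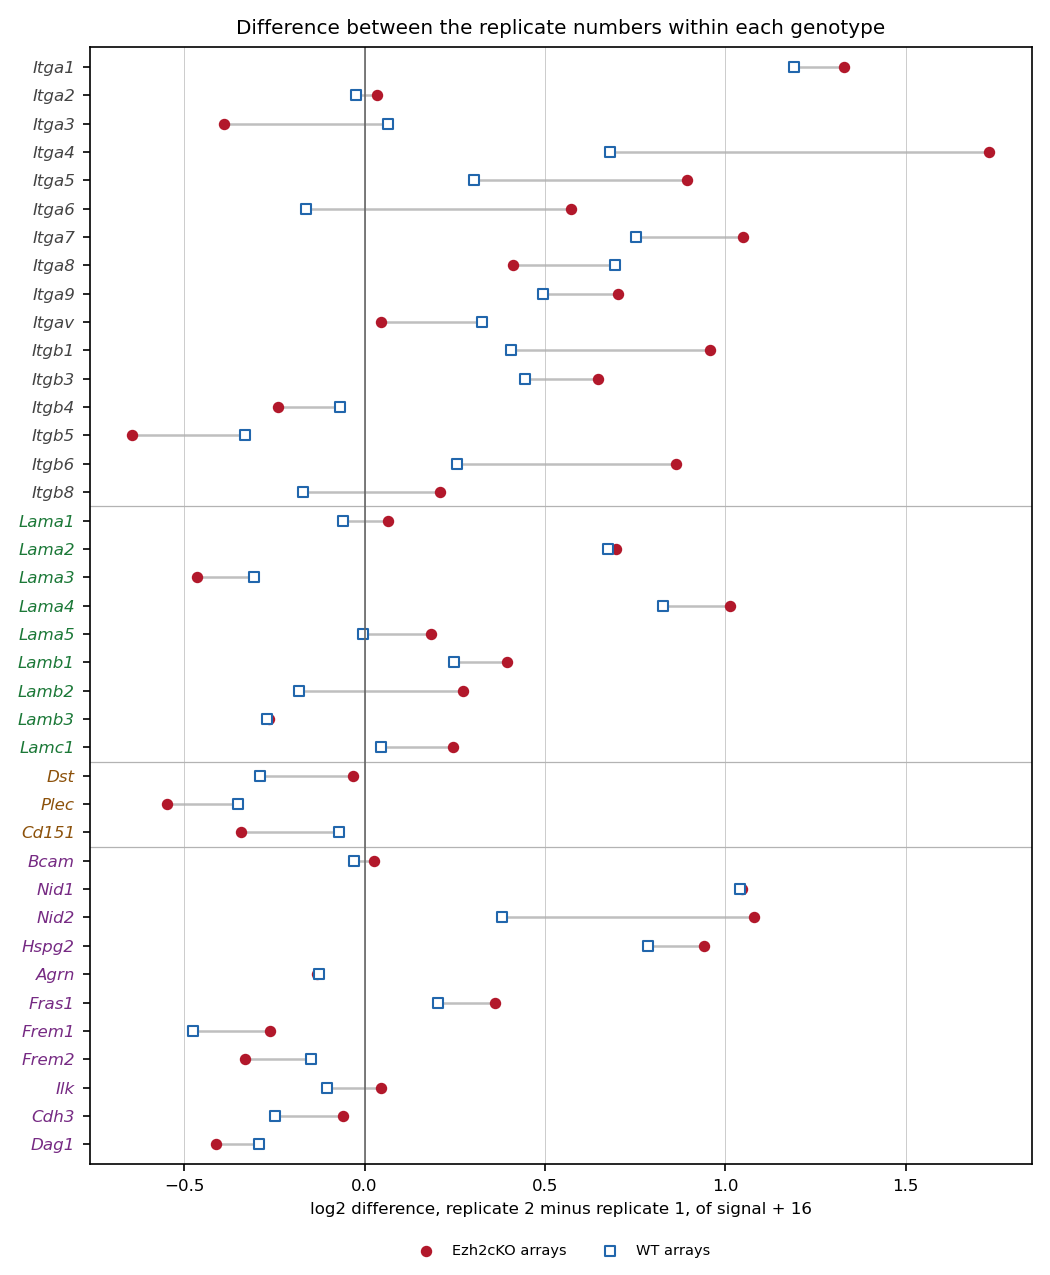
Log2 difference of signal + 16 between replicate 2 and replicate 1 within the Ezh2cKO arrays (red circles) and within the WT arrays (open blue squares) for the brightest kept probe set of each of the 39 measured genes, on the authors' scaling, 1 array at each end of a difference. Itga1, Lama4, Nid1 and Hspg2 lie well to the right in both genotypes, and Itgb5, Lama3, Lamb3 and Plec lie to the left in both.

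Beyond the listed members, 58 of 67 further genes of basement membrane and integrin signalling were measured. By limma 0 passed, 2 were separated upwards (3.45%, against 8.52% of all genes) and 7 downwards (12.1%, against 8.39% of all genes), and their median difference was -0.05, against -0.0035 over all genes. These shares were not tested against each other. Fn1, encoding fibronectin, had 6603 and 5873 in the Ezh2cKO arrays, against 5373 and 4965 in the WT arrays. Fn1 was thus higher on both Ezh2cKO arrays, by log2 0.27 (SE 0.15), while its receptor subunit Itga5 had overlapping groups. Npnt, encoding nephronectin, a basement membrane ligand of α8β1 integrin, had 2662 and 2189 in the Ezh2cKO arrays, against 3100 and 2719 in the WT arrays. Both Ezh2cKO arrays were lower, by log2 -0.26 (SE 0.18), by -0.22 within number 1 and -0.31 within number 2, although 1 of its 4 kept probe sets was higher (0.12). Col7a1, the collagen of the anchoring fibrils beneath hemidesmosomes, had 7278 and 7466 in the Ezh2cKO arrays, against 8175 and 7732 in the WT arrays, a log2 difference of -0.11. The dystrophin-associated Sgcb (0.19) was the other gene separated upwards, and Col4a5 (-0.28), Col18a1 (-0.07), Lims1 (-0.07), Bcar1 (-0.24) and Rsu1 (-0.05) were the others separated downwards. Bcar1, an adaptor of integrin signalling, also had a dimmer probe set that was separated upwards (0.33). Dimmer probe sets of Lamc3 (-0.81) and Col4a6 (-0.37) were separated downwards, although their brightest probe sets overlapped. The second probe set of Col4a5 gave 0.0068.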

How the data were processed

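The deposited values are linear intensities made with MAS5 (version not given), per the submitters' processing notes. The authors' scaling was kept; the mean signal of each array is 500.0 once 2% is trimmed at each end. Arrays were mapped to genotype and number by sample title. Of 45101 probe sets, 64 controls were dropped. A gene name was used where the platform annotation gave a single symbol, updated through the mouse RefSeq table (34741 of 34945 matched). Values were taken as log2(signal + 16), and probe sets with a mean signal in the upper 60% (at least 73.2) were kept. The genotype test was limma 3.58.1 (R 4.3.3) with moderated variances that follow signal and no replicate term. Its p-values were adjusted by Benjamini-Hochberg over 27022 probe sets. The test was also run on simulated data with scatter independent between arrays. In the real arrays the deviations of equal numbers correlated at 0.77, so that run does not show how the test performs on them. Detection calls were not used here, so values of dim probe sets may be background. The members and lists were chosen with earlier results of these data known. Arrays were printed singly for the hemidesmosome and basal adhesion core, for separated genes and for the 3 largest differences each way. Related genes were printed where separated. The alternatives were other pseudocounts (1 and 64), filters (none and the upper 40%), scalings, the number as a block, no trend, averaged probe sets and the omission of single arrays. No sequence was used beyond the RefSeq starts.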

Additional observations from a re-analysis of the deposited data

How the results depend on the processing

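No adhesion probe set passed limma's adjusted threshold under any of the 12 alternatives run for that count. Over all probe sets 0 passed, 6 with the replicate number as a block, and 0 to 52 with 1 array left out (27 without Ezh2cKO replicate 2, 52 without WT replicate 2, 2 without WT replicate 1), a fit that takes the single array's scatter to equal that of the other genotype. The labels do not say that equal numbers share an animal or day, and the deviations of equally numbered arrays correlated across probe sets at 0.77. Genes separated upwards numbered 5, but 3 in the upper 40% of probe sets and 3 with quantile normalization. They numbered 1 with a common median (Itga9, which is not among the 5) and 7 to 18 with 1 array left out. Genes separated downwards numbered 3, with 2 to 4 under other settings and 8 to 21 with 1 array left out, where fewer arrays have to lie apart. The median member difference was -0.08 to 0.12 with 1 array left out. Averaging a gene's probe sets turned the sign of Cd151 (-0.093), Dag1 (-0.020), Itga9 (-0.29), Itgb5 (0.0045), Bcar1 (0.044) and Rsu1 (0.093), and a common median that of Cdh3 (-0.0014). Signs held with each array left out for 10 of 39 members, and the other 29 turned. Their ranges of log2 difference were, for integrins, Itga1 (-0.88 to 0.45), Itga4 (-1.15 to 0.58), Itga5 (-0.37 to 0.52), Itga7 (-0.50 to 0.55), Itga8 (-0.18 to 0.52), Itga9 (-0.28 to 0.42), Itgav (-0.070 to 0.26), Itgb1 (-0.40 to 0.56), Itgb3 (-0.28 to 0.37), Itgb4 (-0.097 to 0.14), Itgb5 (-0.38 to 0.26) and Itgb6 (-0.27 to 0.59), for laminins, Lama2 (-0.37 to 0.33), Lama3 (-0.078 to 0.39), Lama4 (-0.54 to 0.47), Lama5 (-0.11 to 0.076), Lamb1 (-0.39 to 0.00039), Lamb3 (-0.039 to 0.23) and Lamc1 (-0.084 to 0.16), and for the rest, Plec (-0.31 to 0.24), Cd151 (-0.096 to 0.25), Nid1 (-0.60 to 0.45), Nid2 (-0.85 to 0.23), Hspg2 (-0.49 to 0.45), Agrn (-0.11 to 0.019), Frem2 (-0.26 to 0.070), Ilk (-0.060 to 0.043), Cdh3 (-0.10 to 0.15) and Dag1 (-0.18 to 0.24). The cause was not tested. Dim genes such as Itgb6 (55.0 and 113 in the Ezh2cKO arrays, 62.4 and 77.7 in the WT arrays) have uncertain differences (SE 0.57 on the log2 scale), and adding 16 understates them.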
